A study of Mus musculus with 6 samples.

Results

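The G1 cyclins, cyclin-dependent kinases (CDKs) and CDK inhibitors of mouse embryonic stem cells were measured after 2 days of differentiation towards neural fate, in cells with Geminin knocked down and in uninduced cells. They were the 10 genes Ccnd1, Ccnd2, Ccnd3, Ccne1, Ccne2, Cdk2, Cdk4, Cdk6, Cdkn1b and Cdkn2c, each taken with every probe set whose annotation gave that symbol alone. This gave 27 of 45037 probe sets on the array, for 10 of 18193 genes with such a probe set. The set held 7 probe sets of Ccnd2, 3 each of Ccnd1, Ccnd3, Cdk4 and Cdk6, 2 each of Ccne1, Cdk2 and Cdkn1b and 1 each of Ccne2 and Cdkn2c. Probe sets of 1 gene measure the same transcripts and are not independent. Of the 27, 25 had a mean signal above the filter of 20.1 (the 30th percentile of all probe sets) and were tested, while 1447617_at of Cdk2 and 1438805_at of Ccnd3 were too dim.

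The cells were derivatives of the embryonic stem cell line ES-E14TG2a, of 129P2 genetic background, kept for 2 days in N2B27, a medium without serum that leads such cells towards neural fate. Both lines used held a microRNA-like short hairpin (shRNAmir) that targets Gmnn, the Geminin gene, and is switched on by doxycycline (Dox). In each of 3 independent experiments (E1, E2 and E3) a GemKD culture given 500 ng Dox (the labels name no volume) was set beside an uninduced culture of the same line without Dox, giving 3 GemKD arrays and 3 control arrays of the Affymetrix Mouse Genome 430 2.0 type. E1 and E3 used shRNAmir 11 and E2 used shRNAmir 9, in a different line, and whether a line was 1 clone is not given in the sources used here. All 6 cultures carried a hairpin, and every GemKD culture also had Dox, so Dox and knockdown cannot be told apart, nor can hairpin 9 and E2.

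Cells enter the cycle through G1 when D-type cyclins bind CDK4 and CDK6 and phosphorylate the retinoblastoma family of pocket proteins, which frees E2F factors to switch on genes of DNA synthesis. E-type cyclins then activate CDK2 and carry the cell into S phase, while inhibitors of the INK4 class (such as Cdkn2c, p18) bind CDK4 and CDK6 and those of the CIP/KIP class (such as Cdkn1b, p27) bind cyclin and CDK complexes. Embryonic stem cells are known for a short G1 phase with high cyclin E and CDK2 activity, and G1 lengthens as they differentiate. Geminin binds the licensing factor Cdt1 and keeps origins from being licensed again within the same cycle.

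Gmnn itself had signals of 983, 1669 and 1270 in the GemKD arrays of E1, E2 and E3, against 3557, 3477 and 3463 in their controls, and was lower on each GemKD array than on any control. The arrays were alike in overall brightness, with median signals between 59.3 and 60.9. Those of E3 stood apart. Over 12266 probe sets with a mean above 300, the SD of the log2 difference from an E3 array to any array of E1 or E2 was 0.342 to 0.369, against 0.155 between the GemKD and control arrays of E3 and 0.111 to 0.187 among the 4 arrays of E1 and E2. Markers of the labelled neurectoderm were present but uneven. Sox1 had signals of 577 and 523 in the GemKD and control arrays of E3, against 2108 to 2443 in E1 and E2, while the pluripotency factor Pou5f1 stayed between 7338 and 7711 on all 6 arrays. Of the proliferation markers, Top2a differed in E3 (log2 difference -0.23, adjusted p = 5.31e-04), whereas Mki67 (-0.11, adjusted p = 0.218) and Pcna (-0.0046, adjusted p = 0.933) did not pass. In such bulk RNA a lower signal may mean fewer cells that express a gene or less RNA per cell, which cannot be told apart.

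**Figure D1:**
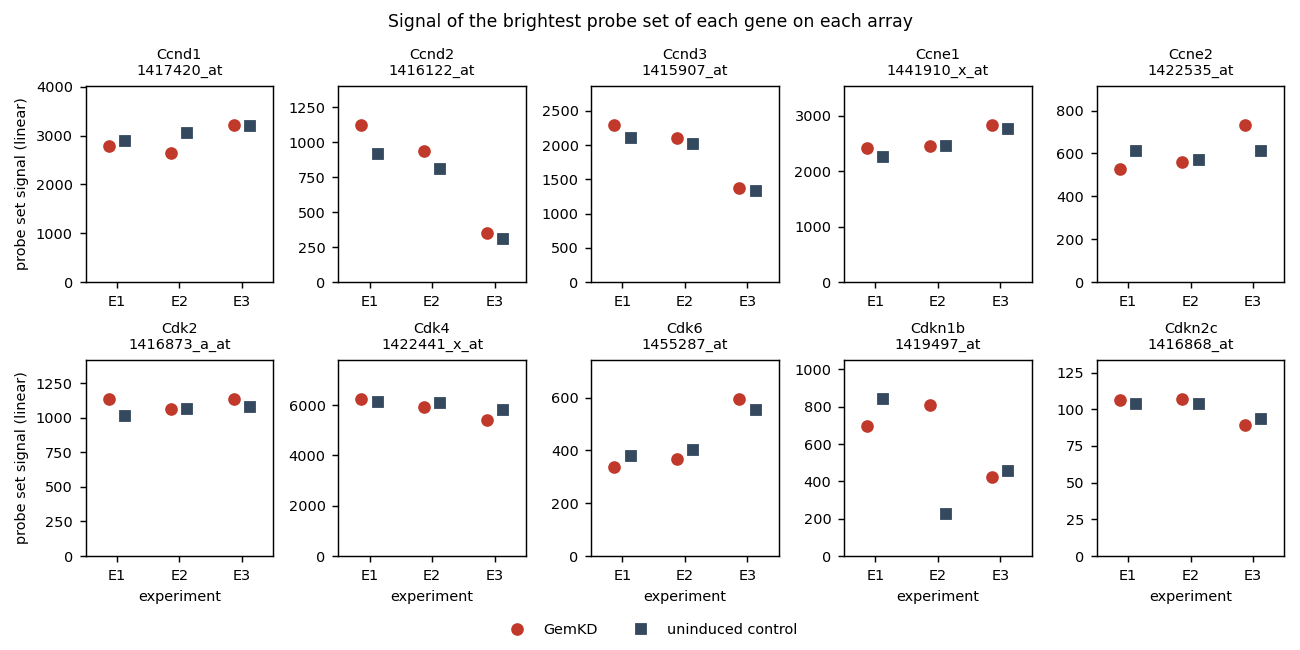
Signal on a linear scale (y axis, starting at 0) of the brightest probe set of each gene in experiments E1, E2 and E3 (x axis), with GemKD as red circles left of the uninduced control as dark squares, 1 array each. Ccnd2 and Ccnd3 are lower and Cdk6 is higher in both E3 arrays, and the control of E2 is low for Cdkn1b (226).

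The first comparison asks whether G1 genes changed when Geminin was lowered. None of the 25 probe sets passed in either fit. In limma without regard to experiment, 0 were called (0 with an unadjusted p under 0.05, all adjusted p = 0.99999), against 1 of 31526 probe sets in all (0.00317%). Gmnn itself, with a log2 fold change of -1.44, was not called in that fit. A missing call there does not show that a gene was unchanged. With the experiment as a block, 0 of the 25 were again called (1 with an unadjusted p under 0.05, smallest adjusted p = 0.992), against 3 of all probe sets (0.00952%). Gmnn was among those 3, as lower. The median log2 fold change over the 25 was 0.05, and over all probe sets it was 0.01, with 17 of the 25 above 0. In all 3 experiments 4 of the 25 were higher in GemKD and 1 was lower, where 13.5% and 10.5% of all probe sets were. No probe set had 3 GemKD arrays all above or all below the 3 controls, as 2.83% and 2.27% of all probe sets did. Log2 values are of the signal plus 16, and intervals are given from the block fit, since each GemKD culture had its own control.

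Among the D cyclins, which bind CDK4 and CDK6, Ccnd2 was the one whose probe sets leaned the same way in E1 and E2. Its brightest probe set, 1416122_at, had signals of 1123, 934 and 349 in the GemKD arrays of E1, E2 and E3, against 916, 806 and 310 in the controls. The GemKD array was the higher in each experiment, but the difference was small beside that between experiments, and the groups overlapped. This came to 0.22 on the log2 scale (1.17-fold, SE 0.07, blocked adjusted p = 0.992), with a 95% interval of 0.06 to 0.38. All 7 probe sets of Ccnd2 were higher in GemKD in E1, with log2 ratios of 0.06 to 0.30, and in E2, with 0.21 to 0.41. In E3 the ratios ran from -0.31 to 0.16, 5 of them below 0. With E1 and E2 alone in the block fit the 7 fold changes were 0.16 to 0.33, with adjusted p between 0.387 and 0.682 (13 of all probe sets were called there, 0.0412%, none of them a member). The difference of the GemKD effect between E3 and the other experiments, a test added after these ratios were seen, was called for 0 of the 7 (differences of -0.62 to -0.08, adjusted p between 0.335 and 0.845; 2 of 31526 probe sets were called, 0.00634%). Nanog, a pluripotency factor, had signals of 2434, 2418 and 341 in the GemKD arrays of E1, E2 and E3, against 1713, 1565 and 288 in the controls, and its part in the Ccnd2 values was not tested.

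Ccnd1, the D cyclin best known as a target of mitogen signalling, stayed close to its controls. Signals of 1417420_at were 2789, 2644 and 3216 in the GemKD arrays of E1, E2 and E3, against 2881, 3056 and 3194 in the controls, with a log2 fold change of -0.08 (95% interval -0.19 to 0.03). The groups overlapped, and the other probe sets of the gene had 0.06 and -0.07. Ccnd3, the third D cyclin, had signals of 2295, 2111 and 1376 for 1415907_at in GemKD, against 2112, 2016 and 1335 in the controls. GemKD was slightly higher in each experiment, with a log2 fold change of 0.08 (-0.04 to 0.19). A dim probe set of Ccnd3, 1444323_at, scattered instead, at 76.9, 51.4 and 44.9 in GemKD, against 47.8, 67.0 and 69.6 in the controls.

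The E cyclins, partners of CDK2, did not pass either. Ccne1 (1441910_x_at) had signals of 2417, 2448 and 2833 in GemKD and 2249, 2455 and 2758 in the controls, a log2 fold change of 0.05 (-0.06 to 0.15), and 0.02 for 1416492_at. Ccne2 had 526, 559 and 733 in GemKD and 612, 568 and 610 in the controls. Its log2 ratios were -0.21, -0.02 and 0.26 in E1, E2 and E3, with a mean of 0.0080 (-0.20 to 0.22), so the sign was not the same in all experiments.

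Among the kinases, Cdk4, the catalytic partner of D cyclins, gave the 3 narrowest intervals of the 25 probe sets. It had log2 fold changes of -0.04 (-0.12 to 0.04), -0.01 (-0.09 to 0.07) and -1.67e-04 (-0.10 to 0.10) in its 3 probe sets. Its probe set 1422439_a_at read 4528, 4428 and 4323 in GemKD, against 4467, 4446 and 4483 in the controls, and the 6 arrays lay close together. Cdk2, the partner of cyclin E, had 1135, 1061 and 1135 in GemKD and 1012, 1066 and 1080 in the controls, with a fold change of 0.08 (-0.07 to 0.22). Cdk6, the other kinase of D cyclins, had 0.05, -0.06 and -0.13 in its 3 probe sets. The last, 1435338_at, was lower in GemKD in each experiment, with ratios of -0.20, -0.16 and -0.02 (mean interval -0.32 to 0.06).

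Cdkn2c, the INK4 inhibitor p18, had 106, 107 and 89.4 in GemKD and 104, 103 and 93.1 in the controls, with a log2 fold change of 0.0079 (-0.25 to 0.27). Cdkn1b, the CIP/KIP inhibitor p27, gave a different answer in each of its probe sets. The brighter, 1419497_at, had signals of 697, 808 and 424 in the GemKD arrays of E1, E2 and E3, against 841, 226 and 457 in the controls. A single array carried the difference, since the E2 control was far below every other array while GemKD was slightly below control in E1 and E3. The log2 ratios were -0.27, 1.77 and -0.10, with a mean of 0.47 (-0.16 to 1.09, blocked adjusted p = 0.992), and without E2 the mean was -0.18. The dimmer probe set, 1434045_at, had 309, 362 and 239 in GemKD and 319, 338 and 229 in the controls, with no such low value and a fold change of 0.04 (-0.17 to 0.24).

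**Figure D2:**
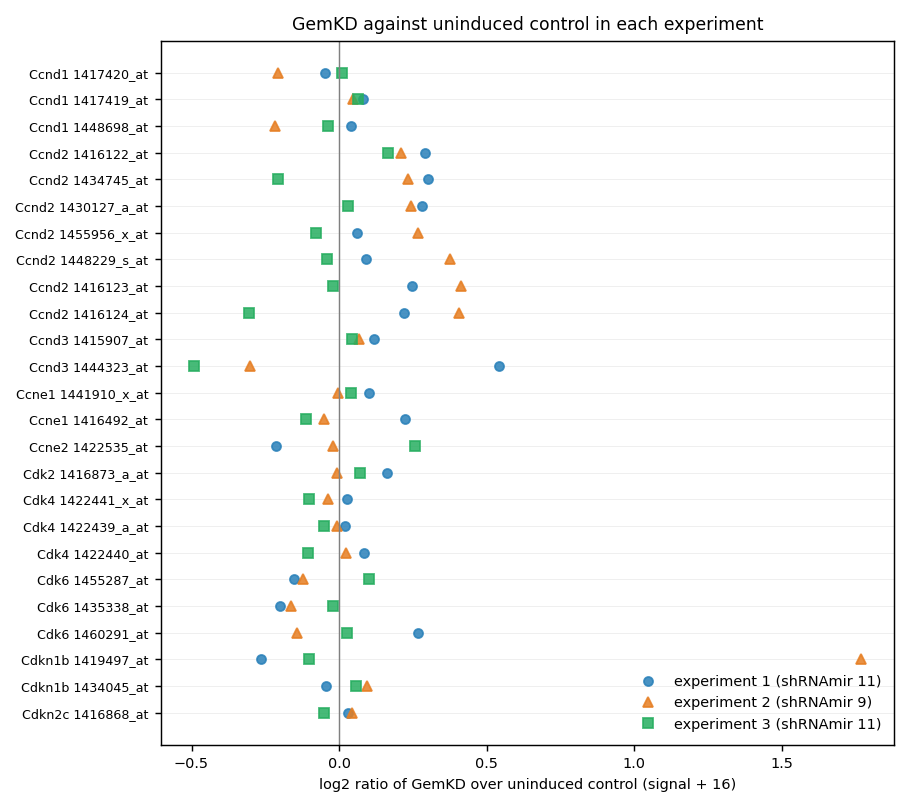
Log2 ratio of GemKD over the uninduced control (x axis, signal plus 16) for the 25 tested probe sets (y axis, by gene), 1 point for each experiment. Ccnd2 points of E1 and E2 lie above 0 and those of E3 spread from -0.31 to 0.16, and 1419497_at of Cdkn1b lies at 1.77 in E2 alone.

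Each line had its own hairpin so that effects of a single hairpin sequence off its target could be told from those of Geminin, per the series' design text. The effect of GemKD was compared between shRNAmir 9 (E2) and shRNAmir 11 (E1 and E3). Of the 25 probe sets 1 was called, 1419497_at of Cdkn1b, against 106 of 31526 in all (0.336%). The effect with shRNAmir 9 was higher by 1.95 on the log2 scale (SE 0.21, adjusted p = 1.24e-07). Since shRNAmir 9 was used in 1 pair of arrays, the test assumes that this pair varies as the others do. This call rests on the low E2 control array and was not shared by 1434045_at, where the difference was 0.09 (-0.39 to 0.57, adjusted p = 0.9999). The E2 control array was the farthest of its 4 from the rest, with an SD of the log2 difference of 0.176 to 0.187 to the other arrays of E1 and E2, against 0.111 to 0.140 among those 3. Its part in the Cdkn1b value was not tested. The genes whose pattern over the 6 arrays was most like that of 1419497_at, which had the widest range among the brightest probe sets of the 10 genes (1.82 on the log2 scale), were Lrp5, Pskh1 and Nckap5los of 14185 compared, with root mean square differences of 0.13, 0.31 and 0.31. Lrp5 had 211, 228 and 134 in GemKD and 319, 68.6 and 130.3 in the controls, lowest in the E2 control. All 6 arrays enter this measure, so a low E2 control is part of how Lrp5 was picked and is not a separate observation.

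The second comparison asks how far the G1 genes differed between the experiments themselves, with GemKD or control as a covariate. E3 was set against the mean of E1 and E2. Here the genes moved in different directions. Ccnd2 was lower in E3, as was 1 of the 2 tested probe sets each of Ccnd3 and Cdkn1b, and Cdk6, Ccnd1 and Ccne1 were higher. In limma 18 of 25 probe sets were called, 8 higher (of Ccnd1, Ccne1 and Cdk6) and 10 lower (of Ccnd2, Ccnd3, Cdk4 and Cdkn1b). Over all probe sets 26.4% were called, 10.6% higher and 15.9% lower. With the brightest probe set alone, 6 of 10 genes were called, against 34% of 14185 genes. The median log2 difference was -0.12 over the 25 and -0.01 over all probe sets, and the median size, whatever the sign, was 0.37 and 0.19. Both E3 arrays lay below all 4 others for 12 of the 25 and above them for 8, as 25.7% and 20.8% of all probe sets did. Among GemKD arrays alone 20 of the 25 were called (33% of all probe sets) and among control arrays alone 10 (9.7%), while against E1 alone 15 were called (21%) and against E2 alone 14 (19.8%). Each arm sets a single E3 array against 2 others and assumes that it varies as they do, so the counts within arms have no replicate of E3 behind them. The experiment is a single occasion, so these p-values measure the spread between arrays within experiments and not that between repeats of an experiment.

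Ccnd2, cyclin D2, gave the largest difference of the 10 genes. Signals of 1416122_at were 349 and 310 in the GemKD and control arrays of E3, against 1123, 916, 934 and 806 in the arrays of E1 and E2. Both E3 arrays were far below all others, at 34.9% of their mean, and the log2 difference was -1.47 (95% interval -1.64 to -1.29, adjusted p = 4.51e-07, 2.77-fold lower). All 7 probe sets were called lower, with differences of -1.91 to -1.04 and E3 signals of 25.1% to 35.5% of the mean of E1 and E2. The largest was 1434745_at, with 194 and 227 in E3, against 1009, 817, 828 and 701 in E1 and E2. The dimmest, 1416124_at, was at 8.8 and 14.7 in E3, under the 20.1 that the filter asks of a mean, so its difference of -1.04 is that of a dim probe set. Ccnd2 was lower in each arm. For 1416122_at it was -1.51 among GemKD arrays alone and -1.43 among controls alone, and -1.58 against E1, which had the same hairpin, and -1.36 against E2.

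**Figure D3:**
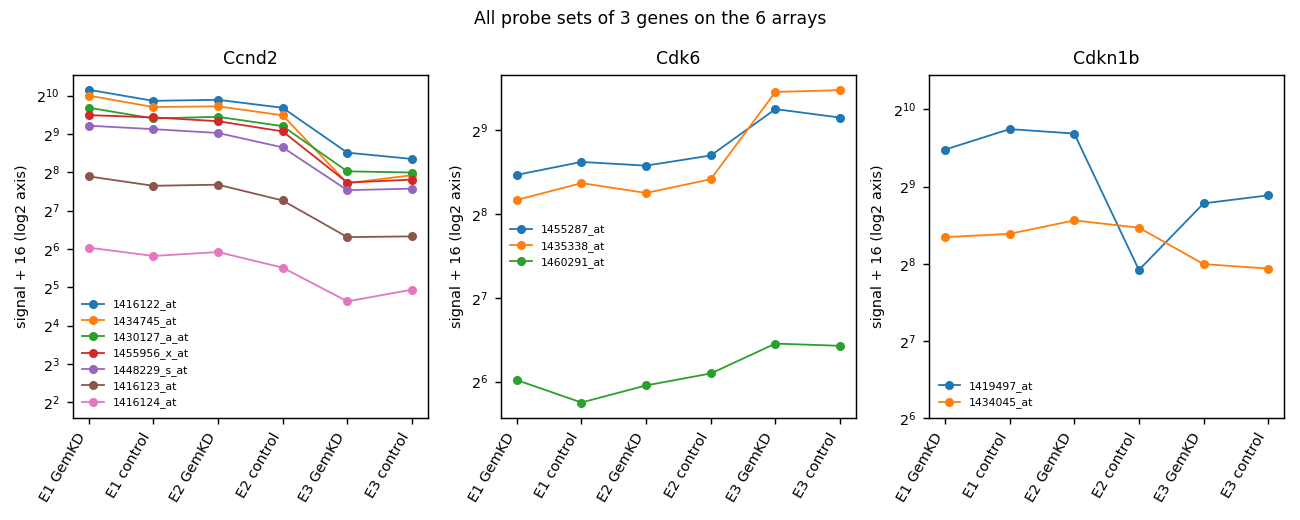
Signal plus 16 on a log2 axis (y) of every probe set of Ccnd2, Cdk6 and Cdkn1b on the 6 arrays (x axis, GemKD left of the control of the same experiment), with lines only to follow a probe set. All 7 Ccnd2 probe sets drop and all 3 Cdk6 probe sets rise in E3, and the 2 Cdkn1b probe sets part in the E2 control.

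The other D cyclins differed in direction. Ccnd3 (1415907_at) had 1376 and 1335 in E3, against 2295, 2112, 2111 and 2016 in E1 and E2. Its E3 arrays were again below all others, with a log2 difference of -0.65 (-0.77 to -0.52, adjusted p = 1.18e-05, 1.57-fold lower), while the dim 1444323_at had -0.07 (adjusted p = 0.833). Ccnd1 was higher, with 2622 and 2511 for 1417419_at in E3, against 2096, 1981, 2033 and 1966 in E1 and E2. The difference was 0.34 (0.23 to 0.46, adjusted p = 5.76e-04, 1.27-fold higher), and the other 2 probe sets had 0.17 (adjusted p = 0.0332) and 0.24 (adjusted p = 0.0189). Those 2, 1417420_at and 1448698_at, were not called against E1 alone (adjusted p = 0.0658 and 0.0566). Against E2 alone 1417420_at was not called (adjusted p = 0.0738), while 1448698_at was (adjusted p = 0.0335). With 1 E3 array in each arm, 1417419_at, 1417420_at and 1448698_at had 0.34, 0.24 and 0.26 among GemKD arrays. Among controls they had 0.35, 0.11 and 0.21. The call of the brightest, 1417420_at, was lost in 3 of the 6 fits with an array left out, of the GemKD arrays of E2 and E3 and the control of E1 (adjusted p = 0.132, 0.293 and 0.0875).

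Cdk6 rose in E3 in all 3 of its probe sets. Signals of 1435338_at were 688 and 698 in E3, against 272, 315, 289 and 326 in E1 and E2, and those of 1455287_at were 595 and 553, against 338, 378, 366 and 400. The E3 arrays lay above all others in both. The log2 differences were 1.17 (0.96 to 1.37, adjusted p = 6.91e-06, 2.25-fold higher) and 0.61 (0.40 to 0.82, adjusted p = 7.68e-04), and that of the dim 1460291_at was 0.49 (adjusted p = 0.0431). The call of 1460291_at was lost against E1 or E2 alone (adjusted p = 0.0527 and 0.141) and within GemKD or control arrays (adjusted p = 0.0934 and 0.228), while those of the brighter probe sets were made in all 4. The 2 brighter probe sets are annotated to the same source sequence, and their intervals do not overlap, 0.96 to 1.37 against 0.40 to 0.82. Cdk4, which binds the same cyclins, differed by less, with 1422441_x_at at 5411 and 5805 in E3, against 6241, 6134, 5913 and 6073. That difference was -0.12 (-0.20 to -0.04, adjusted p = 0.0357), and it was not called for the other 2 probe sets (-0.02 and -0.12, adjusted p = 0.738 and 0.0736). For 1422441_x_at it was called against E1 alone (adjusted p = 0.0373) but not against E2 alone (adjusted p = 0.145). The call was lost without the GemKD array of E1, E2 or E3 or the control of E2 (adjusted p = 0.153, 0.0536, 0.307 and 0.0541). Cdk2 did not pass, at 1135 and 1080 in E3, against 1135, 1012, 1061 and 1066 in E1 and E2 (difference 0.05, -0.10 to 0.20).

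The promoters of these 3 kinases are shown so that the sequence before each start can be read beside the differences just given. The windows, from RefSeq on build GRCm38.p6, run 5′ to 3′ on the strand of the gene from 250 bases before to 50 bases after its start, at chr10:127063285-127063584 (plus strand) for Cdk4, chr5:3343643-3343942 (plus strand) for Cdk6 and chr10:128705002-128705301 (minus strand) for Cdk2. Capitals mark the E-box CACGTG, the letters that Myc and related factors bind, and the E2F letters TTTGGCGC, TTTCCCGC, TTTCGCGC or TTTGCCGC on either strand.
Cdk4: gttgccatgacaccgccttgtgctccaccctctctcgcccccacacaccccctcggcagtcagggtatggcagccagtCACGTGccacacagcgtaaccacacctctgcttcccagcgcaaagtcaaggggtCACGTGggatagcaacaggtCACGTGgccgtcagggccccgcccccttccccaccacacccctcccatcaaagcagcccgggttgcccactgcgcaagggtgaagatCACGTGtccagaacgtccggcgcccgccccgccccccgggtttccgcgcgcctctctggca
Cdk6: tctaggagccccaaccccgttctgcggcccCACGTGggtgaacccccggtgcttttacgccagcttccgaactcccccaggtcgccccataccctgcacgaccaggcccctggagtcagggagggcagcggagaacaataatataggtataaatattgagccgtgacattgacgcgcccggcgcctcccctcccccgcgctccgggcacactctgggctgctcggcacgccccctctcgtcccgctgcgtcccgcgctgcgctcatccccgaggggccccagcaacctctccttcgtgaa
Cdk2: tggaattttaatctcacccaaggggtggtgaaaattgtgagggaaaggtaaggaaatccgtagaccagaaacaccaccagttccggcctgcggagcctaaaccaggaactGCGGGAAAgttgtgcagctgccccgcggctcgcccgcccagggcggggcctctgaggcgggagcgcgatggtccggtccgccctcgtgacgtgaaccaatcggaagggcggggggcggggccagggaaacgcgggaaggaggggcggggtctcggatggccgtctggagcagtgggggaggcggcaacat
The Cdk4 window holds 4 E-boxes, at positions -172, -118, -98 and -11 from the gene's start, as 0.0244% of 32851 such windows hold at least 4, and 7.15% hold any. The Cdk6 window holds 1, at -220. The Cdk2 window has none and holds 1 E2F match, at -140 on the reverse strand, as 2.26% of windows do. The 3 windows are alike in base composition, at 67%, 66.7% and 64.7% G and C. Windows were given for 7 of the 10 genes. Those of Ccne1, Ccnd3 and Cdkn1b hold neither motif, and 1 of the 2 windows of Cdkn2c holds an E-box at 35. Myc and Mycn, which bind E-boxes, were higher in E3. Myc had 535 and 534 in E3, against 395, 397, 393 and 473 in E1 and E2 (difference 0.36, adjusted p = 0.0164), though it was not called against E2 alone. Mycn had 4075 and 4344, against 3298, 3401, 3642 and 3887 (0.24, adjusted p = 0.0014). A match of letters is not evidence of binding, and the part of Myc and Mycn in the kinase values was not tested.

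Of the E cyclins, Ccne1 was slightly higher in E3. It had 2833 and 2758 for 1441910_x_at in E3, against 2417, 2249, 2448 and 2455 in E1 and E2, a difference of 0.22 (0.11 to 0.33, adjusted p = 0.00693, 1.17-fold), and 0.25 for 1416492_at (adjusted p = 0.0183). Neither was called in control arrays alone (adjusted p = 0.122 and 0.0586), and 1416492_at was not called against E2 alone (adjusted p = 0.0762). Ccne2 did not pass (0.24, 0.02 to 0.46, adjusted p = 0.107), with 733 and 610 in E3, against 526 to 612 in E1 and E2. Its E3 control lay inside the range of the other experiments. With 1 E3 array against 2 in each arm, the difference of Ccne2 was 0.42 among GemKD arrays and 0.05 among controls, and the test of that disparity over all 6 arrays did not pass (0.37, adjusted p = 0.405).

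Of the inhibitors, Cdkn1b was lower in E3 in 1 of its 2 probe sets. Signals of 1434045_at were 239 and 229 in E3, against 309, 319, 362 and 338 in E1 and E2. Both E3 arrays were below the others, with a difference of -0.47 (-0.69 to -0.26, adjusted p = 0.00457, 1.39-fold lower). For 1419497_at the difference was -0.37 (-1.04 to 0.29, adjusted p = 0.402). It became -0.86 (adjusted p = 1.18e-07) without the E2 control array and turned to 0.12 and 0.05 without the GemKD arrays of E2 and E3. Cdkn2c had 89.4 and 93.1 in E3, against 103 to 107 in E1 and E2. Its E3 arrays lay below the 4 others, though the difference of -0.18 (-0.45 to 0.10, adjusted p = 0.335) did not pass.

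**Figure D4:**
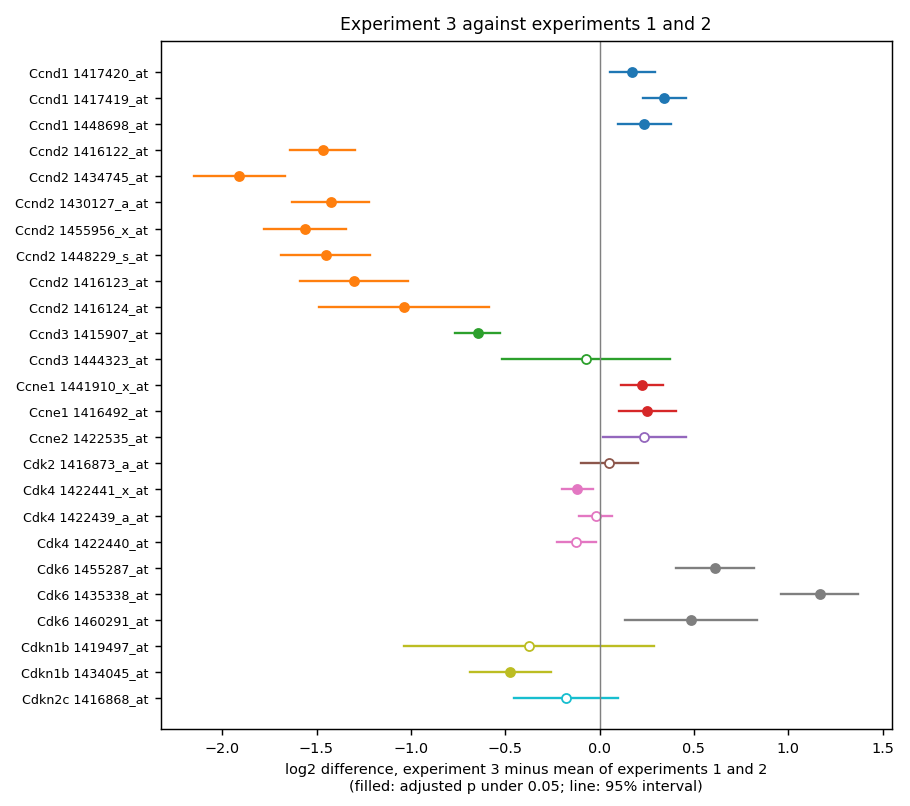
Log2 difference of E3 minus the mean of E1 and E2 (x axis) for the 25 tested probe sets (y axis, coloured by gene), with 95% intervals as lines and filled points where the adjusted p was under 0.05. Ccnd2 lies between -1.91 and -1.04, Ccnd3 1415907_at at -0.65 and Cdk6 between 0.49 and 1.17.

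E1 and E2, grown from different hairpin lines, were closer to each other. None of the 25 probe sets was called in limma between E2 and E1 (4 with an unadjusted p under 0.05), against 11 of 31526 (0.0349%). All 7 probe sets of Ccnd2 had a lower mean in E2, by log2 differences of -0.33 to -0.21, which is in the direction of E3 and none of which passed (adjusted p = 0.99999). The others lay between -0.09 and 0.15, apart from -0.81 for 1419497_at of Cdkn1b, which held the low E2 control. The 3 genes whose pattern over the 6 arrays was nearest to that of Ccnd2 1416122_at, a measure added after seeing the data, were Gbx2 (root mean square difference 0.04), Fads6 (0.08) and Plce1 (0.09). Gbx2 had 839 and 739 in E3, against 2608, 2269, 2319 and 2027 in E1 and E2. All 6 arrays enter this measure, and it is set mainly by the step between E3 and the other experiments.

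The other genes of the G1/S pathway were then followed by their brightest probe set. The list held 39 entries, of which 36 were tested, since Ccna1 and Fbxo4 were below the filter and Skp1a is an older symbol of Skp1. Between GemKD and control 0 of the 36 were called in either limma fit, with a median log2 fold change of -0.02 (beside 0.01 over all probe sets). The largest of each group in GemKD against control had fold changes of -0.08 and 0.04 (the pocket proteins Rb1 and Rbl1), 0.16 and 0.09 (E2f4 and E2f1), -0.14 and -0.10 (the inhibitors Cdkn2b and Cdkn1a), 0.22 and -0.06 (the phosphatase Cdc25a and the kinase Cdk1), -0.08 and 0.06 (Mnat1 and Cdk7 of the CDK activating kinase), 0.14 and -0.06 (the ubiquitin ligase parts Fbxo31 and Skp1) and -0.09 and -0.08 (Myc and Mycn). For Cdc25a, which removes inhibitory phosphates from CDK2, the effect differed between the hairpins, with ratios of -0.04, 0.59 and 0.11 in E1, E2 and E3 (difference 0.55, adjusted p = 0.0341). Its E2 control, at 1470, was again the lowest of the 6 arrays, where the GemKD arrays had 2137, 2217 and 2639 and the controls of E1 and E3 had 2196 and 2439. These values are of 1417131_at. Another bright Cdc25a probe set, 1417132_at, had ratios of -0.09, -0.13 and 0.07, without the E2 difference, while the dim 1445995_at had -0.01, 0.59 and 0.22.

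Between E3 and the other experiments 7 of the 36 were called higher and 4 lower. By the brightest probe set of each gene 34% of 14185 genes were called, and 26.4% of all probe sets were. With a single E3 array in each arm, the median log2 difference of the 36 was 0.09 among GemKD arrays and -0.04 among controls. Over all probe sets these medians were -0.00465 and -0.024. For the 10 E2F and DP factors they were 0.07 and -0.03, and for Myc, Mycn, Foxo1 and Foxo3 they were 0.25 and 0.14. The calls named here for E2F and DP factors, Myc, Mycn, Cdc25a and Fbxo31 come from all 6 arrays together. Neither arm alone has a replicate of E3 behind it. Cdc25a was not called against E1 alone (adjusted p = 0.19) nor Myc against E2 alone (adjusted p = 0.0771). Of the 5 other inhibitors 1 was called higher and 1 lower, and Cdkn2a, Cdkn2b and Cdkn2d did not pass. Cdkn1a (p21, a CIP/KIP inhibitor and p53 target) had 1822 and 1862 in E3, against 1113, 1037, 1057 and 1357 in E1 and E2, a log2 difference of 0.69 (adjusted p = 1.77e-04). Cdkn1c (p57, the third member of that family) went the other way, with 2338 and 2263 in E3, against 4497, 3957, 3938 and 3819, a difference of -0.81 (adjusted p = 8.40e-07). Within the CIP/KIP family Cdkn1a was higher while Cdkn1c and the 1434045_at signal of Cdkn1b were lower. The pocket protein Rbl1 (p107) had -0.46 (adjusted p = 0.00502), and Rb1 had -0.16, which did not pass (adjusted p = 0.0938). Of 10 E2F and DP factors, the repressors E2f7 (0.39) and E2f6 (0.24) and the partner Tfdp1 (0.23) were higher and Tfdp2 (-0.30) was lower, while E2f2 had -0.37 without passing (adjusted p = 0.11). Cdc25a (1417131_at) was higher by 0.36 (adjusted p = 0.0204), with 2639 and 2439 in E3, against 2137, 2196, 2217 and 1470 in E1 and E2. The last of these is the low E2 control, which enters the mean of E1 and E2. Fbxo31, a ligase part that targets cyclin D1, was lower, at -0.40 (adjusted p = 0.0172). Wee1, Skp2, Cdk7 and Ccnh had -0.14, 0.20, 0.14 and 0.08, none of which passed.

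**Figure D5:**
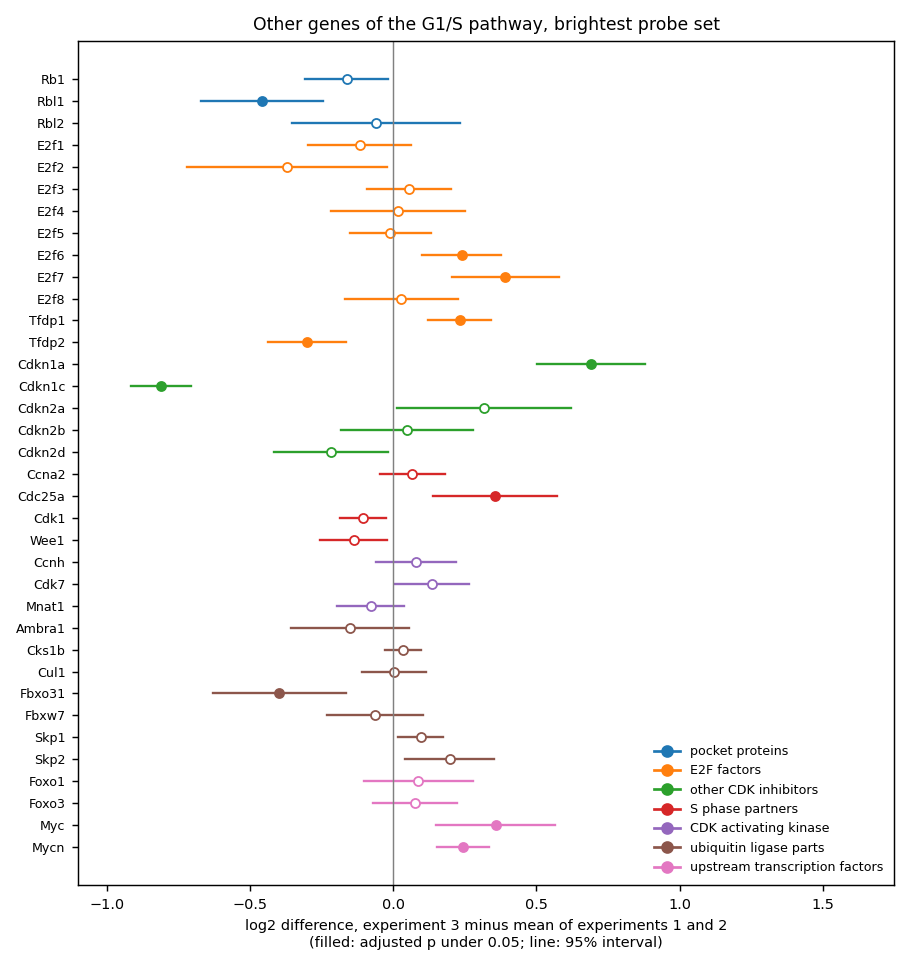
Log2 difference of E3 minus the mean of E1 and E2 (x axis) for the 36 other G1/S genes tested (y axis, coloured by group), with 95% intervals as lines and filled points where the adjusted p was under 0.05. Cdkn1c at -0.81 and Cdkn1a at 0.69 lie farthest from 0.

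Other markers stepped with E3 in the same arrays as Ccnd2, Ccnd3 and Cdk6. All 3 epiblast markers were called higher (Fgf5 2.17, Pou3f1 0.95 and Otx2 0.93 on the log2 scale), with 3 of 5 pluripotency markers (Nanog -2.61, Klf4 -1.91 and Zfp42 -1.19) and 4 of 5 neural markers (Pax6 -2.24, Sox1 -2.04, Zic1 -0.85 and Sox2 -0.18) lower. Of 4 fibroblast markers 3 were lower and Thy1 was higher, and none of the tested endoderm, mesoderm and trophectoderm markers was called. Mesp1 was the mesoderm marker tested, since Mixl1 was below the filter and brachyury had no probe set here. The part of these markers in the G1 gene values was not tested.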

How the data were processed

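Per the labels, biotin-labelled total RNA of each of 6 cultures went on 1 array. The values deposited are linear intensity signals, 1 for each probe set on each array. The software, background correction and normalization behind them were not given in the sources used here. With medians this close, no further normalization was applied. Depth has no meaning for arrays, and their number (3 a group) limits the precision. Gene names came from GEO's annotation of the platform (34945 with 1 symbol, 932 with several, 9160 with none), and symbols were checked by Entrez identifier against RefSeq genes of GRCm38.p6 (0 changed, 204 identifiers not in that table).

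Probe sets with a mean above the 30th percentile (31526) entered the linear models of limma (version 3.58.1, under R 4.3.3; eBayes with a trend on intensity; log2 of the signal plus 16, two-sided, Benjamini-Hochberg adjusted p under 0.05 over all 31526). Fits were checked on simulated data. Replicate numbers pair the arrays, because the series' design text calls the experiments independent and each has both groups. Deviations of the 2 arrays of a number from their group means had correlations of 0.431, 0.38 and 0.656 within E1, E2 and E3. Between numbers, GemKD of E2 and the control of E1 had 0.386, and GemKD of E1 and the control of E2 had 0.26. Pairs of an E3 array with an array of E1 or E2 had -0.54 to -0.41. The correlations set E3 apart but do not clearly tell the pairs of E1 and E2 from each other. GemKD was compared without a block and, as the alternative, with it. E3 was compared with E1 and E2 with the group as covariate, and hairpins by the product of group and hairpin with the experiment as block (1 residual degree of freedom).

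The members, lists and comparisons were chosen with earlier results of these data known. Member probe sets are named or given by their range; other genes are those called, up to 2 of each group by size of log2 difference, Gmnn and listed markers. Named afterwards were the neighbours of Ccnd2. Alternatives were other normalization, filters, pseudocounts (1 and 64), no trend, 1 value per gene, single arms and leaving out arrays or experiments. Promoter windows came from a RefSeq table.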

Additional observations from a re-analysis of the deposited data

Results flagged for a closer look

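The effect of GemKD differed between the hairpins in 3 results, by the test of the difference itself. For Cdkn1b 1419497_at it was higher with shRNAmir 9 than with shRNAmir 11 by 1.95 on the log2 scale, for Cdc25a 1417131_at by 0.55 and for Gmnn 1417506_at by 0.59 (limma adjusted p = 1.24e-07, 0.0341 and 0.0415). shRNAmir 9 had 1 GemKD and 1 control array, so these tests have no replicate of that hairpin, rest on 1 residual degree of freedom and assume that the pair varies as the others do. The log2 ratio of Gmnn was -1.05 in E2, against -1.84 and -1.44 in E1 and E3. For both Cdkn1b 1419497_at and Cdc25a 1417131_at the E2 control was the lowest of all 6 arrays. Other bright probe sets did not show the E2 ratio, at 0.09 for Cdkn1b 1434045_at and -0.13 for Cdc25a 1417132_at, while the dim Cdc25a 1445995_at had 0.59, and shRNAmir 9 and E2 cannot be told apart. Groups of 3 arrays were too small to test single arrays as outliers.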

How the results depend on the processing

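No member was called between GemKD and control under any alternative run. Over all probe sets that count, 1 in the main comparison, was 0 without an intensity trend and 0 to 1 with an array left out. It was 3 with the experiment as a block, also with quantile normalization, the 50th percentile or a pseudocount of 1 or 64, and 12 to 17 in the block fit with an experiment left out. The block changed no call of a member. Under quantile normalization, with or without the block, the fold changes of Ccne2 and Cdkn2c turned to -0.012 and -0.015, and with the mean of all probe sets that of Cdk2 turned to -0.013. With an array left out, fold changes ran from -0.25 to 0.72 for Ccnd2, -0.13 to 0.30 for Ccnd3, -0.30 to 0.11 for Cdk6, -0.037 to 0.081 for Cdkn2c, -0.027 to 0.12 for Ccne1, -0.13 to 0.10 for Ccne2, -0.085 to 0.017 for Cdk4 and 8.0e-04 to 0.91 for Cdkn1b 1419497_at. With an experiment left out of the block fit they ran from -0.0094 to 0.037 for Cdkn2c (-0.0036 without E1), -0.12 to 0.12 for Ccne2 and -0.18 to 0.83 for Cdkn1b. For E3 against E1 and E2, the counts of 8337 probe sets and 18 members became 4261 and 11 without an intensity trend, 4822 and 6 with the brightest probe set and 3943 and 4 with the mean of each gene (fewer features are tested there), 3057 and 10 in control arrays alone, and 6294 to 7425 and 13 to 18 with an array left out. Ccnd2 1416122_at and Cdk6 1455287_at kept their calls in every alternative. Ccnd3 1415907_at lost its call with the mean of its probe sets alone (adjusted p = 0.0966). The calls of Ccnd1 1417420_at and Cdk4 1422441_x_at were lost without a filter, without a trend and in control arrays alone, and that of Ccne1 1441910_x_at without a trend and in control arrays alone. Against E2 alone Ccnd1 1417420_at and Cdk4 1422441_x_at also lost their calls, and against E1 alone Ccnd1 1417420_at did. Fits of 1 arm hold a single E3 array. Cdkn1b 1419497_at turned to 0.054 in control arrays alone and to 0.031 against E2, and ran from -0.86 to 0.12 with an array left out. Between E2 and E1, 11 probe sets became 6 without a filter, 2 without a trend and 11 to 243 with an array left out, with 0 to 1 members. The hairpin test was rerun with quantile normalization and with pseudocounts of 1 and 64 alone, and no call of a Cdkn1b probe set moved. Each of these runs kept the low E2 control array, so they cannot show how far the call depends on it. Where a cause is not stated it was not tested. Signals near the filter, as of Ccnd2 1416124_at and Ccnd3 1444323_at, limit what those probe sets can show.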
